A study of Mus musculus with 830 samples.

Results

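Lgals2, Tdh, Tspan8, Lpar3, Gpc6, Frem2, Tgif1 and Mmp14 are 8 of 26313 genes listed in a single-cell RNA-seq study of the early mouse gut, and they were selected on their low read counts in cells of the Ngn3Cre lineage reporter. The measured difference between Ngn3Cre and HZ cells therefore chose them, and its values are given here as a description that supports nothing by itself. The study profiled 830 single cells of endoderm and gut from C57BL/6XC3H embryos of 15 to 27 somites, sorted after a stain for EpCAM, an epithelial surface protein. Ngn3Cre cells (333) had the genotype Ngn3-Cre; Ai6, a Cre driven by Neurog3 (Ngn3) with a reporter that stays on in a cell and its descendants. HM cells (171) had the genotype Ngn3-GFP/GFP, with GFP on both Neurog3 alleles, and HZ cells (326) had the genotype Ngn3-GFP/+, with GFP on 1 allele. The labels do not say whether cells were also gated on Ai6 or GFP. No group lacks a reporter allele, the cells stand for lineages only as far as the Neurog3 drivers mark them, and no embryo is named. Reads were therefore summed over the cells of a reporter and stage. The 11 pools of at least 10 cells were tested, namely Ngn3Cre at 21, 24 and 27 somites, HM at 15, 18, 21 and 24 somites and HZ at 18, 21, 24 and 27 somites. P-values measure the spread between such pools. In comparisons of reporters the mean difference between stages is taken out first. The spread left there includes changes with stage that differ between reporters. It rests on 4 degrees of freedom in those fits, and on 7 in the fit of a slope over stages.

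Endocrine cells of the gut and pancreas arise from epithelial progenitors through Neurog3, a transcription factor of the basic helix-loop-helix class. Cells that switch it on leave the epithelial sheet and begin to make hormones such as glucagon, the product of Gcg. Lgals2 encodes a galectin, a sugar-binding protein of the gut epithelium. Tdh encodes threonine dehydrogenase, a mitochondrial enzyme that breaks down threonine and is known from mouse embryonic stem cells. Tspan8 encodes a membrane protein of the tetraspanin family. Lpar3 encodes a receptor for the signalling lipid lysophosphatidic acid. Gpc6 encodes a glypican, a heparan sulfate carrier on the cell surface. Frem2 encodes a matrix protein of the Fraser complex, which holds epithelia to their basement membrane. Tgif1 encodes a homeodomain repressor that limits TGF-beta signalling. Mmp14 encodes a membrane-bound protease that cleaves collagen.

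Promoters are shown for 4 of the genes that differ in where they were read, as described below: Lgals2 and Tspan8, high mainly in cells with gut or liver landmark genes, and Frem2 and Mmp14, read in all the classes of cells given here. RefSeq promoters on GRCm38.p6 were found for 6 of the 8 genes. Each line gives the 250 bases before the annotated start, on the gene's own strand. They lie at chr15:78855530-78855779 (minus strand, Lgals2), chr10:115817034-115817283 (plus strand, Tspan8), chr3:53657356-53657605 (minus strand, Frem2) and chr14:54431348-54431597 (plus strand, Mmp14). The Tspan8 window lies inside the gene as GENCODE draws it, since RefSeq places this start further downstream.
Lgals2: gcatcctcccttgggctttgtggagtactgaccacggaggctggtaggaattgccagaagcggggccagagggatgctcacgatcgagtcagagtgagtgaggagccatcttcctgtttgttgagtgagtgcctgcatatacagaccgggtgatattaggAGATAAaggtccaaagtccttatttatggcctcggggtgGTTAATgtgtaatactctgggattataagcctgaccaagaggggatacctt
Tspan8: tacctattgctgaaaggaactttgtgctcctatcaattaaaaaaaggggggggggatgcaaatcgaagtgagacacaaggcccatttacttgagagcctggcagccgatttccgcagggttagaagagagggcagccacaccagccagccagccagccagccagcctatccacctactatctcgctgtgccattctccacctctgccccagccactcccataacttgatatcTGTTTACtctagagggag
Frem2: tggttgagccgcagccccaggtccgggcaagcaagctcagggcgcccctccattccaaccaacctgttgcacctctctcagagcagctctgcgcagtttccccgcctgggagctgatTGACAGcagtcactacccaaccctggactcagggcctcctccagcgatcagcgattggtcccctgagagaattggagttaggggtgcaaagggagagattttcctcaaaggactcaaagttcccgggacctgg
Mmp14: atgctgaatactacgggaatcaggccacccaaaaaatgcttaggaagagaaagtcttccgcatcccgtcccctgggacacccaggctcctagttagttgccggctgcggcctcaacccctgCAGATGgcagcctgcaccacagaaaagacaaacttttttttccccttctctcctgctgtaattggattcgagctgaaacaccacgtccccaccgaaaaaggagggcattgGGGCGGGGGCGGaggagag
Capitals mark matches, on either strand, to 7 short motifs that were searched: CANNTG (the E-box of basic helix-loop-helix factors), TATAAA (the TATA box), AGATAA (bound by GATA factors), TGTTTAC (bound by forkhead factors), GTTAAT (part of an HNF1 site), TGACAG (bound by TGIF factors) and GGGCGG (the GC box). Of the 32851 promoter windows of this length, 66.2% hold the E-box, 12.4% the TATA box, 9.99% the GATA letters, 3.17% the forkhead letters, 6.43% the HNF1 letters, 15.9% the TGIF letters and 32.7% the GC box. The Lgals2 window held 1 match to the GATA letters and 1 to the HNF1 letters, the Tspan8 window 1 match to the forkhead letters and the Frem2 window 1 match to the TGIF letters. The Mmp14 window held 1 E-box and 2 adjacent GC boxes. The E-box letters were in none of the windows of Lgals2, Tspan8, Lpar3 and Frem2. Tgif1 has 5 windows, which held 1, 3, 0, 0 and 2 matches to the E-box letters. A match of letters is not a binding site.

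The whole genes lie on 5 chromosomes of GRCm38, and all are protein-coding in GENCODE vM21. Lgals2 spans chr15:78850860-78855529 on the minus strand, Tspan8 chr10:115816832-115849893 on the plus strand and Tgif1 chr17:70844205-70853546 on the minus strand. Frem2 (chr3:53513938-53657355, minus) and Lpar3 (chr3:146220963-146286186, plus) share chromosome 3. Mmp14 (chr14:54431612-54445364, plus), Tdh (chr14:63492347-63509092, minus) and Gpc6 (chr14:116925315-117976544, plus) share chromosome 14.

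Cells held 1400 to 2525083 reads (median 452597, over 7490 genes in the median cell), and the pools tested held 8299225 to 70763553 reads. Neurog3 was read first, as the gene the reporters replace or follow. In CPM, a read count scaled to a common library size (here with TMM factors), it was at 553, 147 and 195 in Ngn3Cre pools of 21, 24 and 27 somites. It was at 10.3, 8.59, 6.18 and 11.1 in HM pools of 15, 18, 21 and 24 somites, and at 132, 132, 87.7 and 79.4 in HZ pools of 18, 21, 24 and 27 somites. The pools also differed in their make-up. The summed level of 13 endocrine markers, all read in every Ngn3Cre pool, was 15697 to 26824 CPM in Ngn3Cre, 64.3 to 567 CPM in HM and 963 to 16931 CPM in HZ. The summed level of 11 neural or neural crest markers was 235 to 1383 CPM in Ngn3Cre, 7.29 to 176 CPM in HM and 108 to 256 CPM in HZ, with Foxd3 at 0 in 4 HM pools. That of 11 cycling genes was 434 to 745 CPM in Ngn3Cre, 1651 to 2216 CPM in HM and 1130 to 1940 CPM in HZ, and that of 8 hepatic markers was 802 to 1589 CPM in Ngn3Cre, 228 to 15230 CPM in HM and 1140 to 9710 CPM in HZ. Blood markers summed to at most 1.40 CPM in any pool. The part of this make-up in the results below was not tested, except where values within classes of cells are given, and in summed cells fewer cells with a gene and less RNA per cell cannot be told apart.

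The epithelial name was set beside the data. Cells were sorted after a stain for EpCAM, so their Epcam level does not test whether the 8 genes are epithelial. Epcam was at 469, 353 and 258 CPM in Ngn3Cre pools of 21, 24 and 27 somites, at 533 to 801 CPM in HM pools and at 220 to 668 CPM in HZ pools. Its log2 difference was -0.11 for Ngn3Cre minus HZ (edgeR adjusted p = 0.882). Among the 280 Ngn3Cre cells with at least 50 CPM of Epcam, which are most of the 333, the 8 genes were at 0.890 CPM (Lgals2) to 19.6 CPM (Tgif1). Among the 297 such HZ cells they were at 24.4 CPM (Tspan8) to 91.6 CPM (Tgif1). Of a list of 26 other epithelial genes (junctions, keratins and their regulators), none was called in either direction in Ngn3Cre against HZ. Over all 18420 genes tested, 0.331% were called lower and 0.00543% higher, so nothing is read from this count. Of the 26, 20 had negative values and the median was -0.68, beside a median of -0.02 over all genes. Gpc6, Frem2, Tgif1 and Mmp14 were also read in cells with a mesenchymal marker, as described below, so the name fits only some of the 8.

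Lgals2, Tdh and Tspan8 were at most at 7.41 CPM in any Ngn3Cre pool. Lgals2 had 2.67, 0.164 and 0 CPM in Ngn3Cre pools of 21, 24 and 27 somites, against 180, 65.1, 28.1 and 4.07 CPM in HZ pools of 18, 21, 24 and 27 somites. At 27 somites Lgals2 had 0 reads over 69 Ngn3Cre cells. Taking 3 counts as the limit for a count of 0, this leaves room for a share of up to 4.35% of cells with a read and a level of up to 0.0657 CPM, for counting error only. Its fitted log2 difference, Ngn3Cre minus HZ with stage as a factor, was -6.36 ± 0.75 (SE). It was -7.77 without Ngn3Cre at 21 somites, -7.42 without HZ at 21 somites and -5.75 without Ngn3Cre at 24 somites. Every Ngn3Cre pool lay below every HZ pool.

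Tdh had 1.50, 4.13 and 0.318 CPM in Ngn3Cre pools of 21, 24 and 27 somites and 87.9, 47.2, 39.5 and 6.75 CPM in HZ pools of 18, 21, 24 and 27 somites (log2 difference -4.21 ± 0.53, and -5.07 to -3.64 with a pool left out). Tspan8 had 4.17, 7.41 and 0.275 CPM in the same Ngn3Cre pools and 28.5, 21.0, 28.0 and 5.46 CPM in the HZ pools (log2 difference -2.84 ± 0.47, within 1 SE of that of Lpar3 below). Of the 8 genes Tspan8 was the one whose Ngn3Cre and HZ pools overlapped, since Ngn3Cre at 24 somites lay above HZ at 27 somites. Over all 18420 genes tested, every Ngn3Cre pool lay below every HZ pool for 7.62%, and since this comparison chose the 8, nothing is read from their count. For Tspan8, 1 cell gave 70.8% of the 544 reads of Ngn3Cre at 24 somites, and 1 cell gave 90.2% of the 102 reads of HZ at 27 somites. For Tdh, 1 cell gave 69.3% of the 303 reads of Ngn3Cre at 24 somites, and 1 cell gave 93.7% of the 126 reads of HZ at 27 somites. For both genes the level of HZ at 27 somites, the lowest HZ pool, thus rested mostly on 1 cell.

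Lpar3 had 3.53, 4.51 and 0.593 CPM in Ngn3Cre pools of 21, 24 and 27 somites, against 62.5, 23.1, 15.7 and 5.78 CPM in HZ pools of 18 to 27 somites (log2 difference -2.70 ± 0.37). Gpc6 had 6.91, 10.3 and 6.90 CPM in Ngn3Cre pools and 54.4, 40.8, 36.0 and 50.0 CPM in HZ pools (-2.54 ± 0.31). Frem2 had 10.8, 14.5 and 4.98 CPM in Ngn3Cre pools and 70.6, 55.5, 58.6 and 21.9 CPM in HZ pools (-2.24 ± 0.20). These 3 were lower in Ngn3Cre at each of the 3 stages that both reporters share, without overlap of the pools. Tgif1, at 16.8, 28.6 and 13.0 CPM in Ngn3Cre pools and 98.5, 83.9, 106 and 41.6 CPM in HZ pools (-1.96 ± 0.19), was close to Mmp14 in its difference. Mmp14 was at 11.7, 11.2 and 11.5 CPM in Ngn3Cre pools and 35.7, 51.8, 43.4 and 41.8 CPM in HZ pools (-1.99 ± 0.23).

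**Figure D1:**
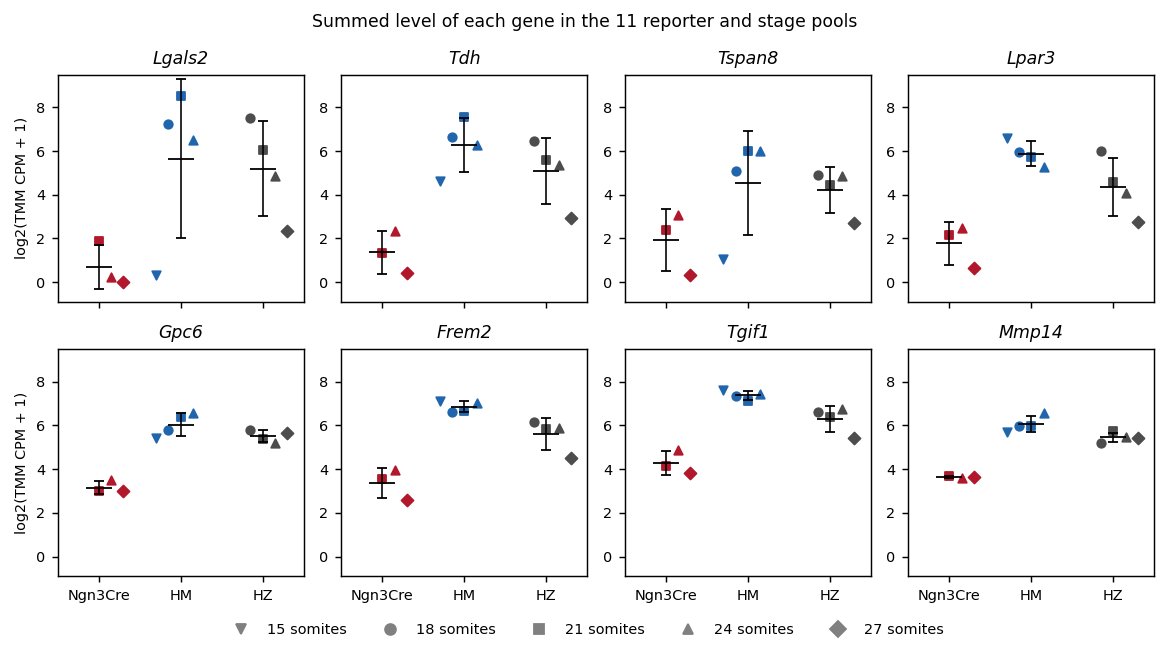
Level of each of the 8 genes as log2(CPM + 1), with TMM scaling, in Ngn3Cre, HM and HZ pools. A point is the summed cells of 1 reporter and stage, marked by somite number, and the line and bar are the mean and SD over pools. Ngn3Cre pools lie below HZ pools for every gene but Tspan8, whose pools overlap, and HM pools reach the highest levels in each panel.

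All 8 genes lay among the 61 called lower in Ngn3Cre than in HZ (0.331% of 18420 genes tested with edgeR's quasi-likelihood test, Benjamini-Hochberg adjusted p under 0.05), while 0.00543% of genes, 1 in all, were called higher. The same comparison chose the 8, so nothing is read from this count. Tspan8 stood nearest to the limit among the 8, at an adjusted p of 0.0452. Over all genes the last fall inside the limit was that of 4930427A07Rik (log2 difference -1.72, adjusted p = 0.0473) and the first outside was that of Vgll4 (-1.86, 0.0507), both named after their values were seen.

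Counted by cell, a smaller share of Ngn3Cre cells than of HM or HZ cells carried the transcripts. At 10 CPM or more, a Ngn3Cre cell had a median of 0 of the 8 genes, an HM cell 5 and an HZ cell 2. None of the 8 reached 10 CPM in 54.4% of Ngn3Cre cells (181 of 333), 1.75% of HM cells (3 of 171) and 17.2% of HZ cells (56 of 326). At least 6 of the 8 did so in 1.20% of Ngn3Cre cells (4), 41.5% of HM cells (71) and 17.2% of HZ cells (56). Lgals2, Tdh and Tspan8 together reached it in 0 Ngn3Cre cells, 52 HM cells and 32 HZ cells.

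The shares of single genes at 24 somites show the same range. Lgals2 was at 10 CPM or more in 0.645% of 155 Ngn3Cre cells (exact 95% binomial interval 0.0163% to 3.54%), 57.5% of 80 HM cells (45.9% to 68.5%) and 21.2% of 85 HZ cells (13.1% to 31.4%). Mmp14 was so in 20.0% of Ngn3Cre cells (14.0% to 27.2%), 85.0% of HM cells (75.3% to 92.0%) and 54.1% of HZ cells (43.0% to 65.0%). The intervals cover counting error only. With each cell thinned to 100000 reads at 24 somites, without the 19 Ngn3Cre, 7 HM and 14 HZ cells of lower depth, Lgals2 had a read in 2.21%, 61.6% and 26.8% of Ngn3Cre, HM and HZ cells, and unthinned in 3.23%, 66.2% and 27.1%. For Mmp14 these shares were 23.5%, 90.4% and 60.6% thinned and 27.7%, 93.8% and 63.5% unthinned.

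Transcript levels of different genes can be set side by side in the authors' TPM, which is per length. In Ngn3Cre cells of 21 somites the order of mean TPM was Tgif1 (12.1), Lgals2 (7.67), Mmp14 (6.82), Tspan8 (3.64), Gpc6 (2.05), Frem2 (1.37), Lpar3 (1.35) and Tdh (0.858). In HZ cells of 21 somites it was Lgals2 (130), Tgif1 (35.5), Mmp14 (34.8), Tdh (30.1), Tspan8 (19.6), Lpar3 (13.6), Gpc6 (9.41) and Frem2 (7.24). Lgals2 thus had the highest mean level in HZ of this stage, yet 27.9% of its reads there came from 1 cell of 149. In Ngn3Cre of this stage, 65.6% of its 128 reads came from 1 cell of 106, so its place in that order rests on few cells.

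In the homozygous reporter all 8 genes had higher fitted values than in HZ, but by edgeR none passed the test. This comparison sets cells with GFP on both Neurog3 alleles against cells with GFP on 1. It was not used to choose the 8 genes, though it shares the HZ pools with the comparison that was. All 8 log2 differences, HM minus HZ, were positive (median 0.78), while the median over all 18420 genes was -0.09 and 44.8% of genes were positive. By edgeR 0 of the 8 were called higher (0.0923% of all genes, 17, were called higher and 1.38%, 254, lower), and 5 of the 8 were higher at an unadjusted p under 0.05, beside 4.61% of all genes (850). DESeq2 called 3 of the 8 higher (1.70% of all genes).

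Frem2 came nearest. It had 139, 97.3, 101 and 129 CPM in HM pools of 15, 18, 21 and 24 somites, against 70.6, 55.5, 58.6 and 21.9 CPM in HZ pools of 18, 21, 24 and 27 somites (log2 difference 0.84 ± 0.19, edgeR adjusted p = 0.0709, DESeq2 adjusted p = 0.00231). Tgif1 had 196, 160, 137 and 174 CPM in HM pools and 98.5, 83.9, 106 and 41.6 CPM in HZ pools (0.76 ± 0.17, edgeR adjusted p = 0.0759). For both genes every HM pool lay above every HZ pool, which held for 2 of the 8 and for 2.36% of all genes tested (434). HM was higher at all 3 shared stages for both. The difference of Tgif1 was nearly the same at each, 0.69, 0.71 and 0.71 at 18, 21 and 24 somites.

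Mmp14 had 51.1, 61.1, 62.2 and 93.6 CPM in HM pools against 35.7, 51.8, 43.4 and 41.8 CPM in HZ pools (0.75 ± 0.22, edgeR adjusted p = 0.168), with overlap. Gpc6 had 41.6, 53.9, 82.7 and 94.6 CPM in HM pools against 54.4, 40.8, 36.0 and 50.0 CPM in HZ pools (0.74 ± 0.29, adjusted p = 0.294). Lpar3 had 97.0, 60.6, 51.2 and 37.7 CPM in HM pools against 62.5, 23.1, 15.7 and 5.78 CPM in HZ pools (0.69 ± 0.33, adjusted p = 0.414). At 18 somites Gpc6 and Lpar3 did not differ between the reporters by more than 0.05 on the log2 scale, and the differences lay at 21 and 24 somites. With a pool left out, the fitted difference was 0.48 to 1.08 for Gpc6 and 0.41 to 1.04 for Lpar3.

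Lgals2, Tdh and Tspan8 varied widely between HM pools. Lgals2 had 0.264, 150, 365 and 90.2 CPM in HM pools against 180, 65.1, 28.1 and 4.07 CPM in HZ pools (1.20 ± 0.58, edgeR adjusted p = 0.415). Of the reads of Lgals2 in HM at 18 somites, 68.6% came from 1 cell of 17. The fitted difference of Lgals2 was 0.51 without HZ at 21 somites and 1.91 without either pool of 18 somites. Tdh had 23.8, 99.3, 186 and 76.6 CPM in HM pools against 87.9, 47.2, 39.5 and 6.75 CPM in HZ pools (1.09 ± 0.45, adjusted p = 0.328), and the difference was 0.31 without HM at 21 somites and 1.53 without either pool of 18 somites. Tspan8 had 1.06, 33.0, 63.7 and 64.0 CPM in HM pools against 28.5, 21.0, 28.0 and 5.46 CPM in HZ pools (0.80 ± 0.44, adjusted p = 0.474, and 0.48 to 1.10 with a pool left out). HM pools of 15 somites were the lowest for all 3, and at 21 and 24 somites HM was above HZ for each.

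**Figure D2:**
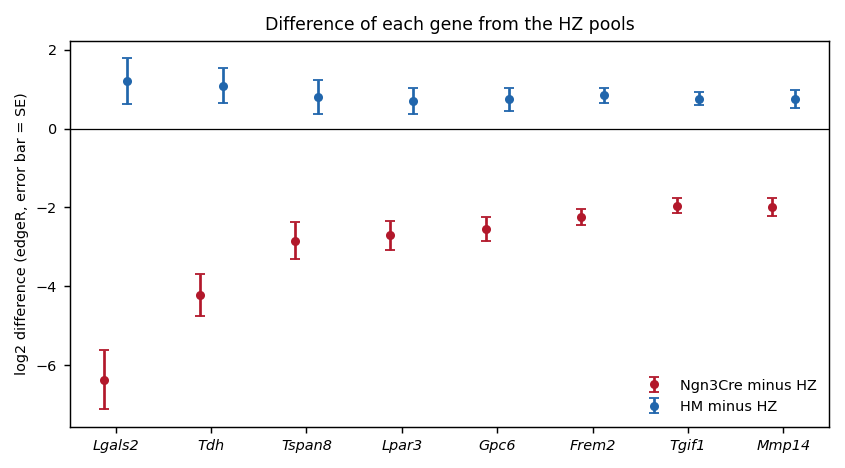
Fitted log2 difference of each gene from the HZ pools, with the SE as error bar. Red points are Ngn3Cre minus HZ, the comparison that chose the genes, from -6.36 for Lgals2 to -1.96 for Tgif1, and blue points are HM minus HZ, from 0.69 for Lpar3 to 1.20 for Lgals2. Both share the HZ pools.

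Among cells with Neurog3 and Gcg both under 10 CPM, the log2 difference of HM minus HZ was -0.38 for Tgif1 and -0.03 for Gpc6 (edgeR adjusted p = 0.999 each), and those of the other 6 were positive, from 0.25 for Frem2 to 0.86 for Lgals2, without passing. In that fit 1 gene of 14783 was called in all.

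Cells were also split by their own Gcg level. Within a pool, the 8 genes were lower in cells with at least 50 CPM of Gcg than in the other cells in 38 of 40 pairs of gene and pool, namely 15 of 16 in Ngn3Cre, 7 of 8 in HM and 16 of 16 in HZ. Over all 18420 genes in the same pools, with pairs of 0 reads left out, the share lower in cells with Gcg was 48.9% in Ngn3Cre, 70.4% in HM and 57.4% in HZ. The HM count rests on 1 pool with 5 such cells and lies near its share over all genes. In Ngn3Cre the count was 18 of 24 at a limit of 100 CPM and 17 of 24 after thinning, while in HZ it was 23 of 24 and 16 of 16. These are levels of cells sorted by a measured value, so no test was made. The Ngn3Cre and HZ cells are also those whose difference chose the genes. At each shared stage the Ngn3Cre pool held more Gcg than the HZ pool. The choice thus favours lower values with Gcg, and nothing is read from the Ngn3Cre and HZ counts. In HZ of 21 somites Lgals2 was at 3.00 CPM in the 28 cells with Gcg and 75.2 CPM in the 121 without. Tdh was at 1.44 CPM in those with Gcg and 54.5 CPM in those without, and Tgif1 at 14.4 CPM with Gcg and 95.2 CPM without. Mmp14 was closest, at 32.0 CPM in cells with Gcg and 55.2 CPM in cells without. In HM of 24 somites Lgals2, Tdh and Tspan8 had no read in the 5 cells with Gcg, while Lpar3 was at 58.9 CPM in them and 39.0 CPM in the 75 others.

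By rising Gcg (under 10, 10 to 100 and at least 100 CPM), Lgals2 was at 203, 61.1 and 7.80 CPM in HM cells (130, 30 and 11 cells) and at 119, 20.0 and 4.53 CPM in HZ cells (153, 122 and 51 cells). Frem2 was at 123, 86.5 and 58.2 CPM in HM cells and at 70.2, 47.3 and 16.4 CPM in HZ cells. Tgif1 was at 161, 168 and 61.2 CPM in HM cells and at 115, 70.8 and 13.8 CPM in HZ cells. The 11 HM cells with the most Gcg were shallow, at a median of 25103 reads per cell. Levels did not go down in order for Tgif1 in HM, for Tspan8 in HM (51.7, 81.6 and 2.40 CPM) and for Mmp14 in both (81.9, 48.7 and 87.0 CPM in HM and 43.7, 59.2 and 19.9 CPM in HZ). Over all 3 reporters, 80 cells had 25 to 50 CPM of Gcg and 82 cells had 50 to 100 CPM, so many lay near the limit.

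Ngn3Cre cells had lower values of the genes given here than HM and HZ cells also where Gcg was low. Between Ngn3Cre and HZ this is again the comparison that chose the genes, so the values are a description. The classes sum cells of unlike stages. With Gcg under 10 CPM, 25 of 33 Ngn3Cre cells were of 21 somites, while 51 of 153 HZ cells were of 18 somites. With Gcg under 10 CPM, Lgals2 was at 6.28 CPM in 33 Ngn3Cre cells, 203 CPM in HM cells and 119 CPM in HZ cells. In the same class Lpar3 was at 5.81 CPM in Ngn3Cre, 50.5 CPM in HM and 38.8 CPM in HZ. Gpc6 was at 9.36 CPM in Ngn3Cre, 83.7 CPM in HM and 53.9 CPM in HZ. Within 21 somites alone, this class held 25 Ngn3Cre, 49 HM and 77 HZ cells. There Lgals2 was at 7.83 CPM in Ngn3Cre, 361 CPM in HM and 97.4 CPM in HZ. Lpar3 was at 7.24, 47.4 and 29.0 CPM in the same order, and Gpc6 at 11.5, 77.1 and 54.9 CPM. With both Neurog3 and Gcg under 50 CPM, which left 27 Ngn3Cre, 154 HM and 152 HZ cells, Tgif1 was at 86.0 CPM in Ngn3Cre, 163 CPM in HM and 136 CPM in HZ, while Lgals2 was at 5.16 CPM in Ngn3Cre, 185 CPM in HM and 123 CPM in HZ. Those Ngn3Cre cells were not shallow, at a median of 640244 reads per cell.

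In cells with much Gcg most members again had lower values in Ngn3Cre. This is the comparison that chose the genes, refitted on part of the same cells. The fit used HZ pools of 12 to 24 cells and called 0 of 13885 genes by edgeR. Its values are a description, given without an SE. With at least 100 CPM of Gcg the fitted log2 difference, Ngn3Cre minus HZ, was -4.43 for Lgals2, -1.66 for Lpar3, -1.49 for Frem2, -1.42 for Gpc6, -0.98 for Tspan8 and -0.68 for Mmp14. That of Tgif1 was 0.62, the 1 gene to turn its direction. Tdh had too few reads there to be fitted. Tgif1 was at 13.9 CPM in 202 Ngn3Cre cells of this class and 13.8 CPM in 51 HZ cells when reads were summed over all stages.

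Mmp14 differed less than Lgals2, Tdh, Tgif1 and Gpc6 when HZ cells of all stages together were classed by Neurog3. In HZ cells with under 10, 10 to 50 and at least 50 CPM of Neurog3 (164, 46 and 116 cells), Lgals2 was at 118, 7.98 and 10.7 CPM. Tdh was at 78.5, 14.4 and 7.94 CPM, Tgif1 at 125, 73.5 and 24.2 CPM and Gpc6 at 56.7, 42.7 and 20.7 CPM. Mmp14 stayed at 49.2, 42.0 and 42.2 CPM. By HZ pool of 18, 21, 24 and 27 somites, Mmp14 was at 34.0, 38.4, 39.5 and 68.7 CPM with at least 50 CPM of Neurog3. It was at 35.3, 58.9, 46.6 and 31.2 CPM in the other cells of these pools. At 27 somites 8 cells had that much Neurog3, and Lgals2, Gpc6 and Frem2 were also higher in them. By pool, levels were lower with at least 50 CPM of Neurog3 in 14 of 24 pairs of gene and pool in Ngn3Cre and in 28 of 32 in HZ. The 24 include Lgals2 at 27 somites, which had 0 CPM on both sides. The share over all genes was not taken for this split, so nothing is read from these counts. In Ngn3Cre, Mmp14 was higher in cells with Neurog3 in each of the 3 pools (11.9, 16.4 and 18.9 CPM with Neurog3 and 11.4, 9.99 and 9.68 CPM without, at 21, 24 and 27 somites), but in 2 of 3 at a limit of 20 CPM and after thinning. Tgif1 was lower in each (10.6, 13.2 and 0.548 CPM with Neurog3 and 32.3, 35.2 and 17.6 CPM without).

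HM cells reached no high Neurog3 level, with 1 cell at 50 CPM or more, but 57 had 10 to 50 CPM. In these 57 cells Mmp14 was at 104 CPM, Frem2 at 135 CPM, Tgif1 at 197 CPM and Gpc6 at 96.2 CPM. In the 113 HM cells under 10 CPM the same genes were at 62.8, 107, 141 and 74.9 CPM. Lgals2 and Tdh went the other way, at 52.8 and 55.6 CPM in the 57 cells and 246 and 139 CPM in the 113. The classes differ in stage. Of the 57 cells 8 were of 21 somites and 34 of 24 somites, and of the 113 cells 45 and 46. Neurog3 class and stage thus cannot be told apart in these values. Across HM cells Spearman's rho with Neurog3 was 0.36 for Mmp14, 0.33 for Gpc6 and -0.08 for Lgals2, and across HZ cells it was -0.01 for Mmp14, -0.18 for Gpc6 and -0.28 for Lgals2. These cells share pools, depth and reads and are of unlike stages, so the values are a description.

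**Figure D3:**
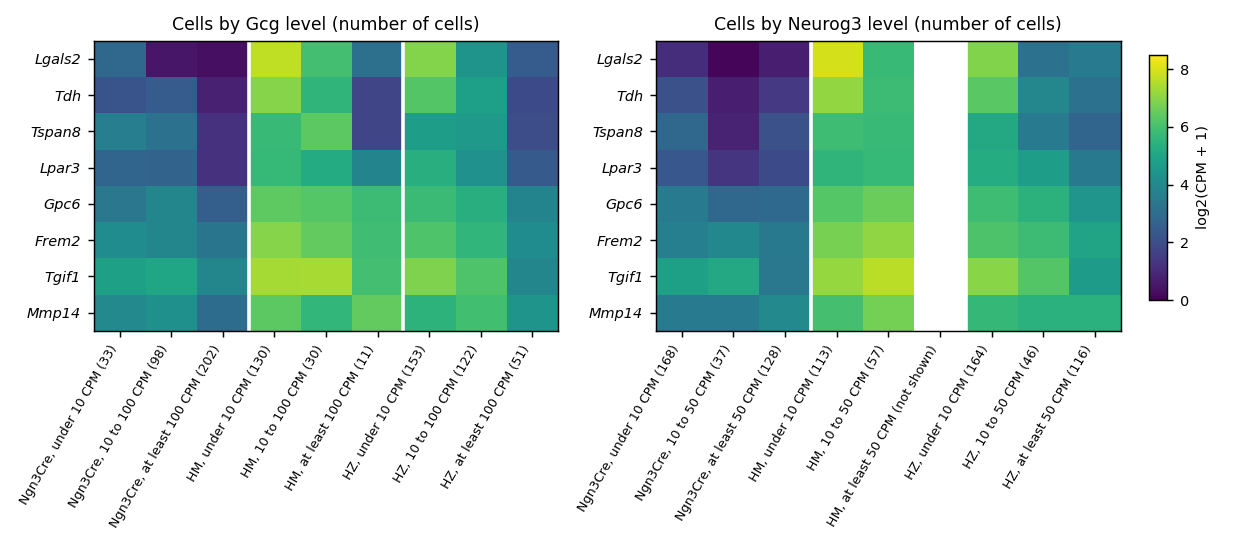
Level of each gene as log2(CPM + 1), with reads summed over cells of a reporter, in classes of rising Gcg (left) and Neurog3 (right), and the number of cells in brackets. Ngn3Cre columns are dark in every Gcg class, and HZ columns darken as Gcg rises for 7 genes, with Mmp14 highest in the middle class. Classes sum cells of all stages, so Gcg or Neurog3 class and stage cannot be told apart in these columns. The class of 1 HM cell with Neurog3 at 50 CPM or more is left blank.

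Cells were also classed by landmark genes at 50 CPM or more, over HM and HZ cells together. A cell can be in several classes. Lgals2, Tdh and Tspan8 followed gut and liver landmarks. In 203 cells with Afp, a gene of early liver and visceral endoderm, they were at 246, 146 and 69.0 CPM. In 151 cells with Cdx2, the factor of the hindgut and midgut, they were at 130, 112 and 66.2 CPM, and in 81 cells with Shh, a ligand of the gut epithelium, at 132, 101 and 89.5 CPM. In 39 cells with Sox2, a foregut factor, they were at 1.93, 12.5 and 1.88 CPM, and in 74 cells with Pdx1, the pancreas and duodenum factor, at 11.8, 34.4 and 10.3 CPM.

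Lpar3 was spread over all of these endodermal classes, from 43.3 CPM with Shh to 60.2 CPM with Cdx2, with 50.7 CPM in Sox2 cells and 57.1 CPM in Pdx1 cells. It was at 19.1 CPM in 18 cells with the mesenchymal collagen Col3a1, and Lgals2 was at 1.22 CPM in them. Gpc6, Frem2, Tgif1 and Mmp14 were broad. In Col3a1 cells they were at 83.2, 55.7, 76.8 and 40.0 CPM, and in Sox2 cells at 58.6, 99.7, 113 and 60.7 CPM. Of these 4, Gpc6 was higher in Col3a1 cells than in Sox2 cells, and the other 3 were lower. In 19 cells with Osr2 these 4 were at 147 CPM for Gpc6, 162 CPM for Frem2, 267 CPM for Tgif1 and 140 CPM for Mmp14, the highest of the classes given except for Frem2, which was at 177 CPM in Shh cells. Lgals2, Tdh and Tspan8 were at 111, 74.5 and 102 CPM in the same Osr2 cells, the highest class of Tspan8.

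**Figure D4:**
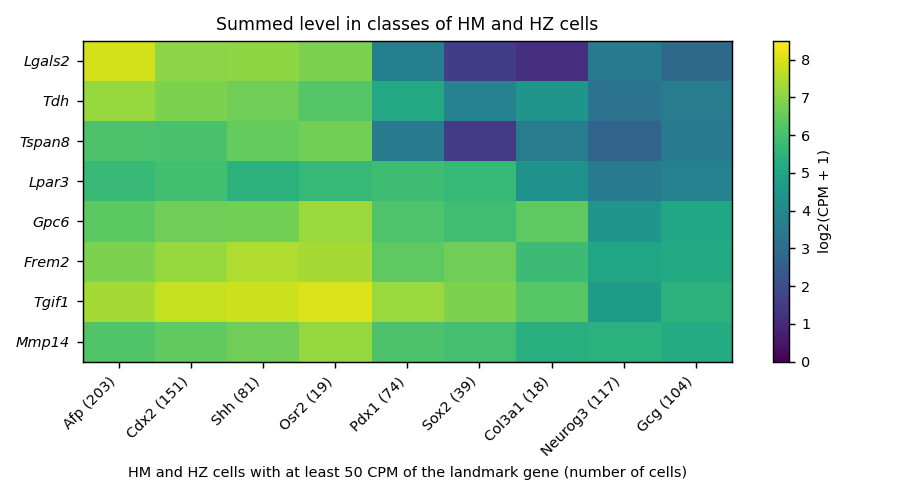
Level of each gene as log2(CPM + 1) in HM and HZ cells with at least 50 CPM of a landmark gene, with the number of cells in brackets. Lgals2, Tdh and Tspan8 are bright in the Afp, Cdx2, Shh and Osr2 columns and darker in the Sox2 and Col3a1 columns, and Gpc6, Frem2, Tgif1 and Mmp14 are present in all columns.

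Single cells showed the same grouping in HM. Spearman's rho across 171 HM cells was 0.58 between Lgals2 and Tdh, 0.63 between Lgals2 and Tspan8 and 0.57 between Tdh and Tspan8. Between Lgals2 and the other 5 genes it was -0.04 to 0.12. In HZ, where cells with and without endocrine genes are mixed, all 28 pairs were positive, from 0.11 to 0.54 with a median of 0.38. The highest was that of Gpc6 and Tgif1. In Ngn3Cre, where most values are 0, the range was 0.06 to 0.32. Depth moved with such values, with a rho of 0.45 between Tdh in HM cells and the reads per cell, and its part in them was not tested.

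**Figure D5:**
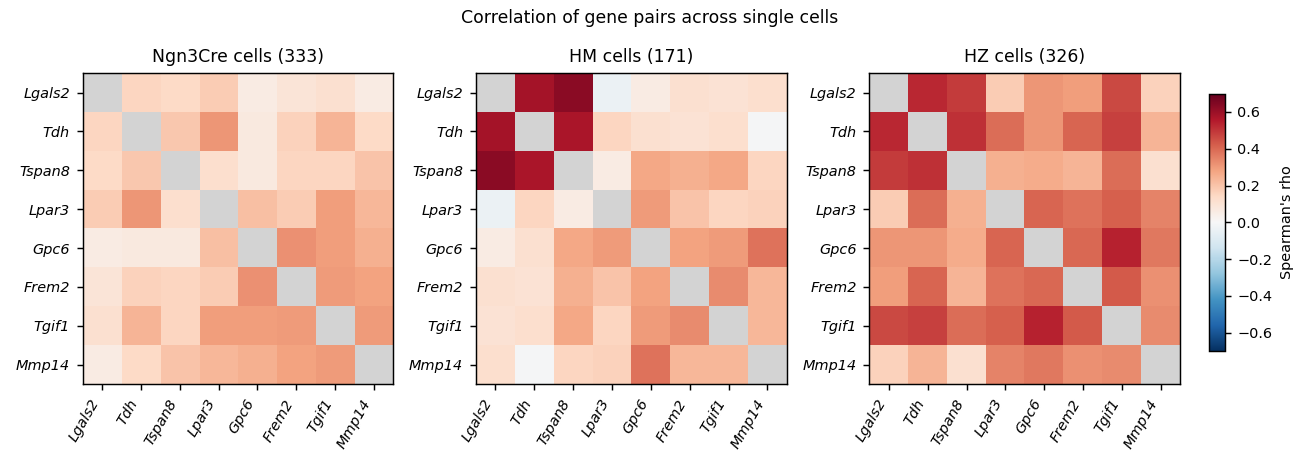
Spearman's rho of each pair of genes across single cells of Ngn3Cre, HM and HZ. In HM the pairs among Lgals2, Tdh and Tspan8 (0.57 to 0.63) stand out from all others, and in HZ all 28 pairs are positive.

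The genes whose cell-by-cell pattern was most like each member were taken over 713 cells of at least 100000 reads and 15360 genes, after subtracting the mean of each reporter and stage. Lgals2 was most like the apolipoprotein genes Apob (Pearson's r = 0.72) and Apoa1 (0.68) and the calcium-binding S100g (0.64). Tdh was most like the folate receptor gene Folr1 (0.69), Apob (0.57) and S100g (0.55). Among the genes most like Tspan8 were Folr1 (0.60) and AA986860 (0.59). Lpar3 was most like Flrt2 (0.54), Adcy8 (0.52) and Raet1e (0.46).

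The broad genes had other partners. Tgif1 was most like Hmga2 (0.65), a chromatin protein of embryonic cells, Vcan (0.62), a matrix proteoglycan, and the Hippo pathway factor Yap1 (0.60). Gpc6 was most like Vcan (0.49), Hmga2 (0.48) and Robo2 (0.48), and Frem2 most like Hmga2 (0.50), the neuronal gene repressor Rest (0.49) and Pdgfc (0.48). Mmp14 was most like Tead2 (0.43), a partner of Yap1, the protease gene Mmp11 (0.42) and Plppr3 (0.41). These are correlations over cells that share libraries and depth, given without a p.

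Stage was tested as a slope per somite with reporter held as a factor. By edgeR 0 of 16478 genes were called (0%), 1377 had an unadjusted p under 0.05, and DESeq2 called 297. None of the 8 was called by edgeR. Lpar3 came nearest, at -0.27 ± 0.06 on the log2 scale per somite (edgeR adjusted p = 0.266, DESeq2 adjusted p = 0.00131). Its level went down with stage in both GFP reporters, with 97.0, 60.6, 51.2 and 37.7 CPM in HM pools of 15 to 24 somites and 62.5, 23.1, 15.7 and 5.78 CPM in HZ pools of 18 to 27 somites. In HZ pools alone, Lgals2 passed at -0.57 per somite (adjusted p = 0.0431). In those 4 pools Gcg was at 4.46, 160, 2006 and 10018 CPM from 18 to 27 somites, so stage and the endocrine share cannot be told apart there.

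No other tested member of the 8 gene families passed the test. Of 8 other galectins, 15 other threonine, glycine and folate enzymes, 23 other tetraspanins, 10 other lysophosphatidic acid genes, 10 other glypicans and syndecans, 8 other Fraser complex genes, 19 other TGF-beta genes and 15 other metalloproteinase genes tested, 0 were called in either comparison by edgeR. Over all 18420 genes tested, 0.331% were called lower and 0.00543% higher in Ngn3Cre against HZ. In HM against HZ, 1.38% were called lower and 0.0923% higher. With shares this low, nothing is read from the 0. In Ngn3Cre minus HZ the median log2 difference was -0.90 over the other Fraser complex genes, -0.54 over the other lysophosphatidic acid genes, -0.46 over the other glypicans and syndecans and 0.13 over the other tetraspanins. The genes named next were chosen after their values were seen. Fras1, which works with Frem2, was at 19.3 CPM in Ngn3Cre and 55.0 CPM in HZ (-1.61, adjusted p = 0.0884), the syndecan gene Sdc4 at 36.3 CPM in Ngn3Cre and 328 CPM in HZ (-2.49, adjusted p = 0.0663), Tgfbr3 at 12.3 CPM in Ngn3Cre and 47.6 CPM in HZ (-1.93, adjusted p = 0.0605), and Lpar1 at 9.40 CPM in Ngn3Cre and 37.2 CPM in HZ (-1.66, adjusted p = 0.107). Gcat, which acts after Tdh in the breakdown of threonine, was at 37.4 CPM in Ngn3Cre and 55.3 CPM in HZ (-0.21, adjusted p = 0.926). Tgif2, the other TGIF gene, was at 2.87 CPM in Ngn3Cre and 2.14 CPM in HZ (0.47, adjusted p = 0.917).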

How the data were processed

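Single cells were profiled with Smart-seq3xpress after an EpCAM stain, sorting and removal of dead cells with DAPI, per the labels' protocols. The authors deposited whole read counts per gene and cell, not scaled, and TPM values of the same cells. The tools named in the submitters' processing notes are HISAT2 2.1.0, Trimmomatic 0.39 and FastQC 0.11.9, and the builds GRCm38 and mm10. The labels give no counter, annotation, strand, use of molecular identifiers or cell filter, so reads of overlapping genes cannot be separated and counts may include copies of 1 molecule.

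The 8 genes, the families and the cell classes were chosen with earlier results of these data known. Cells were grouped by the reporter and stage in their labels. Counts were summed into 14 pools, of which 11 with at least 10 cells entered the fits. The smallest 3 did not: 3 Ngn3Cre cells of 18 somites, 4 HM cells of 27 somites and 5 HZ cells of 15 somites. Depth ran from 1400 to 2525083 reads per cell. 117 cells under 100000 reads or 2000 genes stayed in, except in an alternative, and no doublet caller was run. Nothing in the labels says how many embryos made a pool.

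Pools were compared with edgeR 4.0.16 (R 4.3.3), quasi-likelihood test, TMM scaling, filterByExpr on low counts, and p-values adjusted over all genes after Benjamini and Hochberg (threshold 0.05), with reporter and stage as factors; stage slopes used reporter and somite number. The HM pool of 15 somites is alone at its stage and carries no weight in the fitted differences. Levels are CPM with TMM scaling for pools, and without scaling within classes of cells. Alternatives were DESeq2 1.42.0, no filter, each pool left out, shallow cells left out, limma 3.58.1 on log2(mean TPM + 1) and log2(mean TPM + 0.1), subsets of pools, subsets of cells by Gcg and Neurog3, other class limits and thinning to 100000 reads. The test was tried on simulated data. Named genes are the 8, family genes past the threshold, the 3 most alike genes of each member by Pearson's r of log2(CPM + 10) at r of at least 0.3, and landmark classes at 50 CPM; exceptions are marked, and some genes under this rule are not reported here. Positions are from GENCODE vM21 and promoters from RefSeq (GRCm38.p6).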

Additional observations from a re-analysis of the deposited data

Results flagged for a closer look

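Of 16 groups of 4 pools (8 genes in HM and in HZ), 0 held a pool far from the others by Dixon's limit.

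Pools too small for any fit held 5 values above the highest HZ pool tested, in CPM without scaling. In Ngn3Cre at 18 somites (3 cells), Frem2 was at 181 CPM, against at most 69.0 CPM in HZ, and Mmp14 at 102 CPM, against at most 52.2 CPM. These rest on 55 reads of Frem2, 96.4% of them in 1 cell, and 31 reads of Mmp14, all in 1 cell. In HM at 27 somites (4 cells), Gpc6 was at 58.4 CPM, against at most 53.2 CPM in HZ, Frem2 at 82.7 CPM, against at most 69.0 CPM, and Mmp14 at 104 CPM, against at most 52.2 CPM. Of these reads 49.5%, 67.1% and 43.5% came from 1 cell.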

How the results depend on the processing

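Among HM minus HZ values of the 8 genes, 2 changed direction under any alternative, Gpc6 (-0.03) and Tgif1 (-0.38) among cells with Neurog3 and Gcg under 10 CPM. The calls gained were those of Frem2 (DESeq2, and without HM or HZ at 18 somites), Tgif1 (DESeq2 adjusted p = 0.00358, and both limma fits) and Mmp14 (DESeq2 adjusted p = 0.0308). In Ngn3Cre minus HZ, Tgif1 turned to 0.62 among cells with at least 100 CPM of Gcg, and every other value of the 8 stayed negative. Slopes were less stable: Lgals2 turned to 0.06 and 0.01 with limma on mean TPM + 1 and + 0.1, Gpc6 to -0.02 and Tspan8 to -0.19 in HZ pools alone, and Tspan8 ranged from -0.14 to 0.15 with a pool left out.

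Counts over all genes depended on single pools and on the tool. HM against HZ gave 271 calls, 89 to 318 with a pool left out (leaving out the 21-somite pool of Ngn3Cre gave 162, of HM 127 and of HZ 89, and the 24-somite pool of HZ 130), 1386 by DESeq2 (314 higher and 1072 lower, beside 17 and 254), 422 by limma on mean TPM + 0.1, 94 in HM and HZ pools only, 118 with Gcg under 10 CPM and 1 with both genes under 10 CPM. The stage trend gave 0 calls, 0 to 2 with a pool left out, 297 by DESeq2 and 44 in HZ pools only. Ngn3Cre against HZ gave 62 calls, 0 to 104 with a pool left out (leaving out Ngn3Cre pools of 21, 24 and 27 somites gave 0, 104 and 99, HM pools of 21 and 24 somites 98 and 18, and HZ pools of 21 and 27 somites 6 and 103), 920 by DESeq2 (216 higher and 704 lower, beside 1 and 61), 105 without a filter, 0 and 3 by limma on mean TPM + 1 and + 0.1, 188 with Gcg under 10 CPM and 0 with at least 100 CPM. The cause was not tested. The share of pairs of gene and pool lower in cells with Gcg was 95.0%, and 81.2% to 87.5% at other limits or after thinning. It is a description, since the Ngn3Cre and HZ cells in it chose the genes. HM against HZ at high Gcg and Ngn3Cre against HZ with both genes low could not be run, for lack of cells. No paired analysis was possible because the number in a label only names a cell, so pools of 2 reporters share no number.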

Other observations

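In 8 Ngn3Cre cells with at least 50 CPM of Cdx2, Lgals2 and Tspan8 differed. Tspan8 was at 146 CPM over these cells, beside 66.4 CPM in 92 such HM cells and 65.8 CPM in 59 such HZ cells, but 96.5% of its 399 reads came from 1 cell, and it reached 10 CPM in 2 of the 8. Lgals2 had 2 reads in the 8 Ngn3Cre cells (0.733 CPM), against 127 CPM in HM cells and 136 CPM in HZ cells with Cdx2. Tgif1 was at 108 CPM in these Ngn3Cre cells, 213 CPM in the HM cells and 223 CPM in the HZ cells. In 8 Ngn3Cre cells with at least 50 CPM of Col3a1, Lgals2, Lpar3 and Tgif1 were at 13.2, 18.0 and 78.3 CPM. In 14 such HZ cells they were lower, at 1.38, 12.6 and 69.9 CPM. Tdh, Tspan8, Gpc6, Frem2 and Mmp14 were lower in those Ngn3Cre cells than in those HZ cells, with Frem2 at 46.7 and 53.9 CPM.

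The broad genes were also met without the gut genes. At 10 CPM or more, at least 3 of Lpar3, Gpc6, Frem2, Tgif1 and Mmp14 without any of Lgals2, Tdh and Tspan8 were found in 23 of 333 Ngn3Cre cells, 41 of 171 HM cells and 54 of 326 HZ cells.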
